A study of Mus musculus with 24 samples.

Results

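The genes described here code for enzymes, or parts of enzymes, that make the amino acid cysteine, lead it towards taurine or glutathione, or recycle glutathione. They are 8 of the 13686 genes in the count table, were picked by their symbols, and all 8 passed the filter on low counts that left 11971 genes for testing: Csad, Cdo1, Cbs, Cth, Gclc, Gclm, Gss and Gsr. Livers came from male wild-type C57BL/6 mice kept for 6 weeks on 1 of 4 diets: chow, or a diet enriched with safflower oil (SFO), olive oil (OO) or cottonseed oil (CSO). RNA was read by QuantSeq, which sequences a tag at the 3′ end of each messenger RNA, so levels are given as CPM, counts scaled to the size of the library, and are not scaled to gene length. These are levels of RNA, and neither the amount of enzyme nor the flow of cysteine was examined here. There were 6 libraries each for chow, CSO and OO and 5 for SFO (replicates 1, 2, 3, 5 and 6). The remaining SFO sample, which the submitters set aside as an outlier, was not analysed here. The members were proposed with their differences from chow in view, so those differences are given as a description, with no test. The members that passed the threshold over all genes against chow are counted and named, beside the share of all genes that passed, and nothing is read from this. The oil diets were compared with each other by a test over all genes, but the same libraries stood behind the choice of members, so these tests are no independent support for it.

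Cysteine is made from methionine by transsulfuration, in which CBS condenses homocysteine with serine to cystathionine and CTH cleaves cystathionine to cysteine. Cysteine then takes 1 of 2 main routes in the liver. In the taurine route CDO1 oxidises cysteine to cysteine sulfinate and CSAD decarboxylates this to hypotaurine, the precursor of taurine, which the liver joins to bile acids. In the glutathione route the ligase made of GCLC, the catalytic subunit, and GCLM, the modifier subunit, joins cysteine to glutamate. GSS then adds glycine to give glutathione, and GSR returns oxidised glutathione to its reduced form with NADPH.

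The start of a gene's promoter shows which factors' known binding letters lie there, and windows of 250 bases before the annotated start were available for 4 of the 8 members (Csad, Cbs, Gclm and Gss; RefSeq, GRCm38.p6). Csad is shown in full because it differed most from chow. It has no match to any of the 5 motifs searched, and the same held for the window of its other annotated start.
Csad, chr15:102205053-102205302, minus strand: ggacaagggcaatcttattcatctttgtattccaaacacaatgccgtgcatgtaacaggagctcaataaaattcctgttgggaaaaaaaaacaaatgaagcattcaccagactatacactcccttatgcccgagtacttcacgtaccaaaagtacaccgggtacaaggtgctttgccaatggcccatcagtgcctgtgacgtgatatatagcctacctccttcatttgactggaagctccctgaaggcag
The other 3 sequences are shown around the match that each of those promoters holds, with the matched letters in capitals. In Gclm the match is to TGACNNNGC, the core of the antioxidant response element bound by NRF2, and it lies on the opposite strand, 134 bases before the start. In Gss it is to AGGTCA, the core of many nuclear receptor sites, and in Cbs to CACGTG, the E-box of clock factors.
Gclm, chr3:122245393-122245461, plus strand: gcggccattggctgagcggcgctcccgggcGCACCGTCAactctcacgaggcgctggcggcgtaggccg
Gss, chr2:155592852-155592917, minus strand: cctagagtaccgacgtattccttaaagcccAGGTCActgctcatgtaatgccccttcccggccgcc
Cbs, chr17:31637399-31637455, minus strand: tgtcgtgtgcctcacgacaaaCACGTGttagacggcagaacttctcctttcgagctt
Both strands were searched, and AGGTCA is also part of the inverted repeat bound by the bile acid receptor FXR. Among 32851 promoter windows of the same length, 10.2% hold TGACNNNGC, 14.0% AGGTCA, 6.02% CACGTG, 3.45% TGATGNAA, the core bound by ATF4, and 0.00609% that inverted repeat. These are letter matches in a short window and say nothing about binding in these livers.

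Library totals ran from 5428649 to 14930305 counts, and the smallest count of any member in any library was 350 (Gss), which gives a counting error of 5.35%. The 10 hepatocyte markers, Alb among them, were all present and summed to between 106564 and 183305 CPM. Skeletal muscle transcripts stood out in 4 libraries with Acta1 above 100 CPM, chow replicates 3, 4 and 5 and CSO replicate 1. The 13 muscle markers summed to 11.2 to 3618 CPM in chow, 3.70 to 1612 in CSO, 0.534 to 22.5 in OO and 0.598 to 68.6 in SFO, with Pvalb at 0 in every OO and SFO library. The 12 pericentral hepatocyte markers summed to a median of 10681 CPM in chow (8043 to 12034), 14707 in CSO (10068 to 17460), 15786 in OO (11848 to 18282) and 10759 in SFO (9009 to 12271). The part of cell makeup in the differences below was not tested. Scaling to library totals without a composition factor shifted the median gene by -0.19 (log2) in OO against chow, by 0.16 in CSO against OO and by 0.13 in SFO against OO.

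Csad, the last enzyme before hypotaurine, was lower in all 3 oil diets than in chow. Its level in chow ran from 481 to 742 CPM with a median of 574. In CSO it ran from 145 to 276 with a median of 174, and in OO from 115 to 275 with a median of 149. The 5 SFO libraries had 156, 123, 186, 116 and 189 CPM. No library of any oil diet reached the lowest chow library. The mean was 580 ± 97.6 CPM in chow (SD, n = 6), 154 ± 33.9 in SFO (n = 5), 162 ± 59.0 in OO (n = 6) and 195 ± 53.8 in CSO (n = 6). The log2 fold change from chow was -1.57 ± 0.19 (SE) for CSO, -1.84 ± 0.19 for OO and -1.91 ± 0.20 for SFO, so that CSO kept 33.6%, OO 27.9% and SFO 26.5% of the chow level. Without the 4 libraries with muscle transcripts the values were -1.45, -1.75 and -1.81. In bulk liver, fewer cells that express a gene and less RNA per cell cannot be told apart.

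No difference in Csad between the oils passed the test. CSO was above OO by 0.27 ± 0.18 on the log2 scale (95% interval -0.10 to 0.64; edgeR adjusted p = 0.542) and above SFO by 0.34 ± 0.19 (-0.05 to 0.73; edgeR adjusted p = 0.751). SFO minus OO was -0.07 ± 0.19 (-0.46 to 0.32; edgeR adjusted p = 0.899), and its sign turned without OO replicate 2, at 0.16. These intervals still allow a difference of up to 1.66-fold between CSO and SFO.

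**Figure D1:**
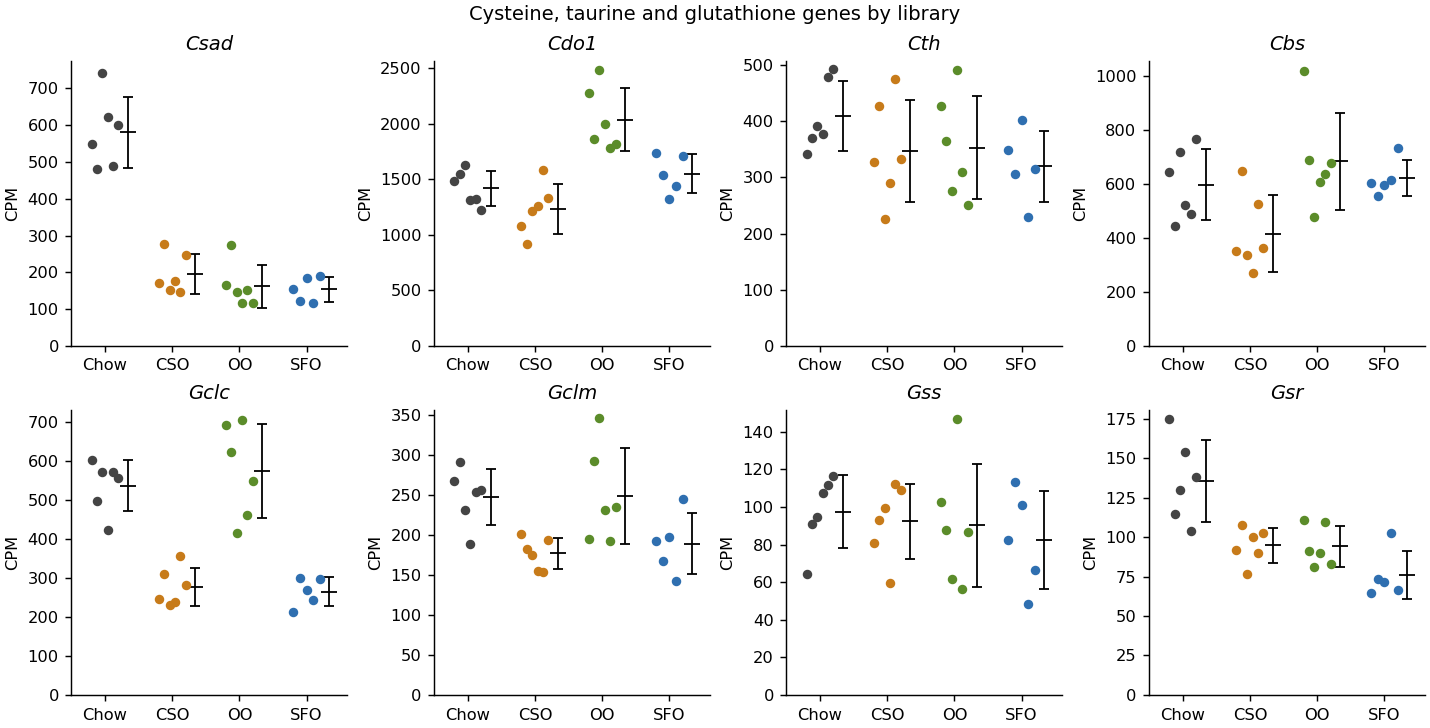
CPM of each of the 8 genes (vertical axis, from 0) in every library, grouped by diet along the horizontal axis; each point is 1 library, and the bar with whiskers is the mean ± SD (6 libraries each in chow, CSO and OO, 5 in SFO). Csad points of all 3 oil diets reach at most 276 CPM and all chow points at least 481, while Gclc in OO lies with chow and Gclc in CSO and SFO lies below both.

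Cdo1, the dioxygenase that feeds CSAD, did not follow Csad. It ran from 1222 to 1626 CPM in chow (median 1401), from 918 to 1584 in CSO (median 1235) and from 1783 to 2486 in OO (median 1929). The SFO libraries had 1740, 1537, 1320, 1443 and 1713 CPM. Every OO library was above every library of the other 3 diets, whose ranges overlapped. Against chow, Cdo1 differed by -0.20 ± 0.12 in CSO, 0.52 ± 0.12 in OO and 0.13 ± 0.12 in SFO. The OO value was 0.33 with library totals, where the median gene was also lower by 0.19. It was 0.52 without the 4 libraries with muscle transcripts.

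Between oils, Cdo1 was lower in CSO than in OO, 1231 ± 227 against 2037 ± 285 CPM (n = 6 and 6). The difference was -0.73 ± 0.12 (log2, 95% interval -0.96 to -0.49; edgeR adjusted p = 0.000218). SFO, at 1551 ± 178 CPM, was 0.39 ± 0.12 below OO (log2 difference -0.39, 95% interval -0.64 to -0.15) and missed the threshold (edgeR adjusted p = 0.0952), although the 2 ranges did not overlap. CSO minus SFO was -0.33 ± 0.12 (-0.58 to -0.09; edgeR adjusted p = 0.361). The call between CSO and OO held without each of the 23 libraries in turn.

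The contrast between these 2 enzymes was read within each library as the log2 ratio of Csad to Cdo1, whose change between diets has a meaning while its level does not, since the genes' tags may be captured unequally. The ratio was -1.30 ± 0.26 in chow (SD, n = 6), -2.68 ± 0.58 in CSO (n = 6), -3.35 ± 0.35 in SFO (n = 5) and -3.71 ± 0.51 in OO (n = 6). All 17 oil libraries lay below the lowest chow library (-1.68), the nearest being a CSO library at -1.73. OO had the lowest mean, as its Csad was low and its Cdo1 high. These ratios carry no test because the same differences chose the genes.

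**Figure D2:**
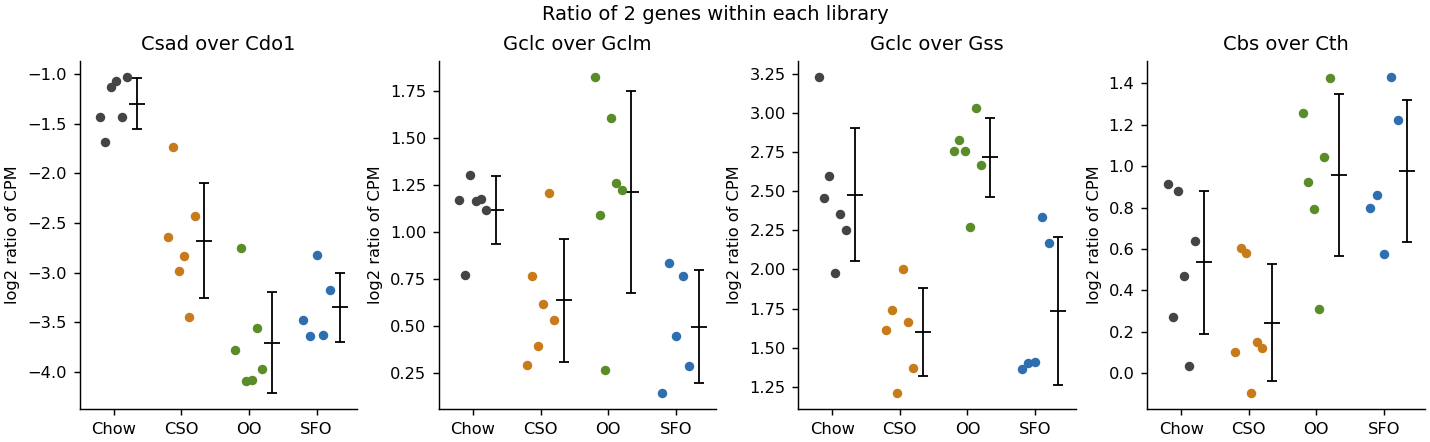
Log2 ratio of the CPM of 2 genes within each library (vertical axis) by diet (horizontal axis); points are libraries, and the bar with whiskers is the mean ± SD (n = 6, 6, 6 and 5). For Csad over Cdo1 the chow points lie at -1.68 or above and the oil points at -1.73 or below; for Gclc over Gclm the CSO and SFO means, 0.64 and 0.50, lie below those of chow and OO, 1.12 and 1.21, with overlapping points.

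Gclc, the catalytic subunit of the ligase that commits cysteine to glutathione, split the oil diets. Chow ran from 423 to 602 CPM (median 565) and OO from 417 to 707 (median 587). CSO ran from 231 to 356 (median 265), and the SFO libraries had 213, 299, 270, 244 and 299 CPM. All CSO and SFO libraries were below all chow and OO libraries, while OO spanned the whole chow range. Against chow the log2 differences were -0.95 ± 0.15 in CSO, 0.10 ± 0.14 in OO and -1.02 ± 0.16 in SFO, so that CSO held 51.6% and SFO 49.3% of the chow level.

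The test between oils found the same division. Gclc was lower in CSO (278 ± 49.0 CPM, n = 6) than in OO (575 ± 121, n = 6) by -1.05 ± 0.15 on the log2 scale (95% interval -1.35 to -0.76; edgeR adjusted p = 1.25e-05). It was also lower in SFO (265 ± 37.0, n = 5) than in OO, by -1.12 ± 0.16 (-1.43 to -0.81; edgeR adjusted p = 4.83e-05). CSO minus SFO was 0.07 ± 0.15, with an interval from -0.24 to 0.37 (edgeR adjusted p = 0.981). Both differences from OO kept their call without each of the 23 libraries in turn and in the 11 other settings.

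Gclm, the modifier subunit, ran the same way with smaller differences, and those between oils passed no test. It ran from 189 to 292 CPM in chow (median 255), from 154 to 201 in CSO (median 179) and from 192 to 346 in OO (median 234). The SFO libraries had 193, 167, 198, 143 and 245 CPM, and the groups overlapped in all 6 comparisons. Against chow the log2 differences were -0.49 ± 0.16, 0.01 ± 0.16 and -0.39 ± 0.17 in CSO, OO and SFO. CSO minus OO was -0.49 ± 0.16 (95% interval -0.82 to -0.16; edgeR adjusted p = 0.117) and SFO minus OO -0.40 ± 0.17 (-0.75 to -0.05; edgeR adjusted p = 0.251). The log2 ratio of Gclc to Gclm was 1.12 ± 0.18 in chow and 1.21 ± 0.54 in OO, against 0.64 ± 0.33 in CSO and 0.50 ± 0.30 in SFO (SD, n = 6, 6, 6 and 5).

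Gss, which completes glutathione, showed no difference between oil diets that passed the test. Its mean was 97.5 ± 19.2 CPM in chow, 92.2 ± 19.7 in CSO, 90.3 ± 32.6 in OO and 82.3 ± 26.1 in SFO, and its libraries ran from 48.3 to 147 CPM over all diets. Its difference between CSO and OO was 0.03 ± 0.24 (95% interval -0.45 to 0.51; edgeR adjusted p = 0.974). The log2 ratio of Gclc to Gss was 2.48 ± 0.42 in chow and 2.72 ± 0.25 in OO, against 1.60 ± 0.28 in CSO and 1.74 ± 0.47 in SFO.

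Gsr, the reductase that recycles glutathione, was lower in SFO than in chow. Chow ran from 104 to 175 CPM (median 134), CSO from 76.4 to 107 (median 95.8) and OO from 81.0 to 111 (median 90.2). The SFO libraries had 64.8, 73.7, 71.4, 103 and 66.7 CPM, all below the lowest chow library at 104, while CSO and OO overlapped chow. The log2 differences from chow were -0.52 ± 0.19 in CSO, -0.53 ± 0.19 in OO and -0.84 ± 0.21 in SFO. In the authors' deposited table the OO difference was -0.54. The SFO difference was -0.90 without the 4 libraries with muscle transcripts, and it ran from -0.97 to -0.75 when each library was left out in turn. Between oils Gsr passed no test; the widest difference, CSO minus SFO, was 0.32 ± 0.20 (95% interval -0.09 to 0.73; edgeR adjusted p = 0.819).

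Upstream of cysteine, Cbs was lower in CSO than in OO. The CSO libraries had 351, 651, 338, 271, 527 and 363 CPM, and the OO libraries 1019, 690, 479, 608, 638 and 677. CSO replicates 2 and 5 lay within the OO range and OO replicate 1 lay far above the rest, so the groups overlapped. Chow ran from 447 to 768 CPM (median 583), and the SFO libraries had 605, 555, 598, 617 and 736. CSO averaged 417 ± 143 CPM and OO 685 ± 180 (n = 6 and 6), a log2 difference of -0.72 ± 0.17 (95% interval -1.07 to -0.37; edgeR adjusted p = 0.0268).

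The Cbs call was lost without CSO replicate 1, 3, 4 or 6 or OO replicate 1 (edgeR adjusted p from 0.0738 to 0.0839), and without the libraries with muscle transcripts (0.102, edgeR adjusted p). With library totals it was lost at a log2 difference of -0.57 (edgeR adjusted p = 0.0935), and in the fit of only these 2 diets at -0.71 (edgeR adjusted p = 0.0733). It was also lost with a score of 9 clock genes as a covariate (log2 difference -0.59, edgeR adjusted p = 0.189). The score was 2.90 to 4.82 in CSO, -0.71 to 3.74 in OO, -1.75 to 4.17 in SFO and -1.55 to 2.75 in chow. Every CSO library was thus above every chow library. With this covariate CSO differed from chow by -1.78 in Csad, -0.09 in Cdo1, -0.90 in Gclc and -0.57 in Gclm. For Gss, Gsr, Cth and Cbs the values were -0.24, -0.35, -0.29 and -0.41. The part of the clock in these differences was not tested. CSO minus SFO was -0.58 ± 0.18 for Cbs (-0.94 to -0.21; edgeR adjusted p = 0.200), and this passed without CSO replicate 2 (edgeR adjusted p = 0.0246). SFO minus OO was -0.14 ± 0.18 (-0.51 to 0.23; edgeR adjusted p = 0.759). The differences of Cbs from chow were -0.52 ± 0.17, 0.19 ± 0.17 and 0.06 ± 0.18 in CSO, OO and SFO.

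Cth, which releases cysteine, passed no test between oils. Its means were 409 ± 62.4 CPM in chow, 346 ± 91.0 in CSO, 353 ± 92.4 in OO and 320 ± 63.5 in SFO, and its libraries ran from 226 to 494 CPM. CSO minus OO was -0.03 ± 0.17 (95% interval -0.37 to 0.31; edgeR adjusted p = 0.966). The log2 ratio of Cbs to Cth was 0.53 ± 0.35 in chow, 0.24 ± 0.28 in CSO, 0.96 ± 0.39 in OO and 0.98 ± 0.34 in SFO (SD, n = 6, 6, 6 and 5), with overlapping libraries.

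The members called were then set beside all 11971 tested genes. In CSO against chow 2 members were called (Csad and Gclc, both lower), where 0.409% of all genes were called and 0.200% were called lower. In OO against chow 2 were called (Csad lower, Cdo1 higher) against 2.64% (0.919% lower, 1.72% higher), and in SFO against chow 3 were called (Csad, Gclc and Gsr, all lower) against 0.835% (0.342% lower). Libraries did not overlap chow for the same named members in each oil, 2 in CSO, 2 in OO and 3 in SFO, where 1.44%, 1.75% and 1.59% of all genes did not. Nothing is read from these counts, as the same contrasts chose the members. The SFO count was 2, without Gsr, when chow replicate 1, 4 or 6 or SFO replicate 1, 2, 3 or 6 was left out, and also without the 4 libraries with muscle transcripts. The OO count was 1, without Cdo1, when those 4 libraries were left out, and with library totals Gsr took the place of Cdo1. With the DESeq2 Wald test Gsr joined the OO count, as it did in the authors' deposited table. Gclm joined the CSO count with limma voom and in the fit of only the diets compared, and Cbs with limma voom and without CSO replicate 2. In CSO against OO 3 members were called, Cdo1, Gclc and Cbs, all lower in CSO, where 1.09% of all genes were called and 0.835% were called lower. In SFO against OO 1 was called, Gclc, lower in SFO, against 1.06% (0.794% lower). In CSO against SFO edgeR called 0 members against 0.493% of genes, with Cdo1 and Cbs under an unadjusted p of 0.05, DESeq2 calling 0 and limma voom 1 (Cbs).

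The count of members whose libraries did not overlap was 2 in CSO against OO (Cdo1 and Gclc; 1.44% of all genes), 2 in SFO against OO (Cdo1 and Gclc; 1.11%) and 0 in CSO against SFO (1.70%). The median log2 difference of the 8 members was -0.26 in CSO against OO (-0.08 over all genes), -0.23 in SFO against OO (-0.04) and 0.09 in CSO against SFO (-0.03). Of the 8 members, 8 had a negative difference in SFO against OO, 5 in CSO against OO and 3 in CSO against SFO. The share of all genes with a negative difference was not counted, so nothing is read from this. With library totals Csad in SFO against OO was 0.062. In SFO against OO the 95% intervals of Csad, Gss, Gsr, Cth and Cbs held 0, and those of Cdo1, Gclc and Gclm did not.

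**Figure D3:**
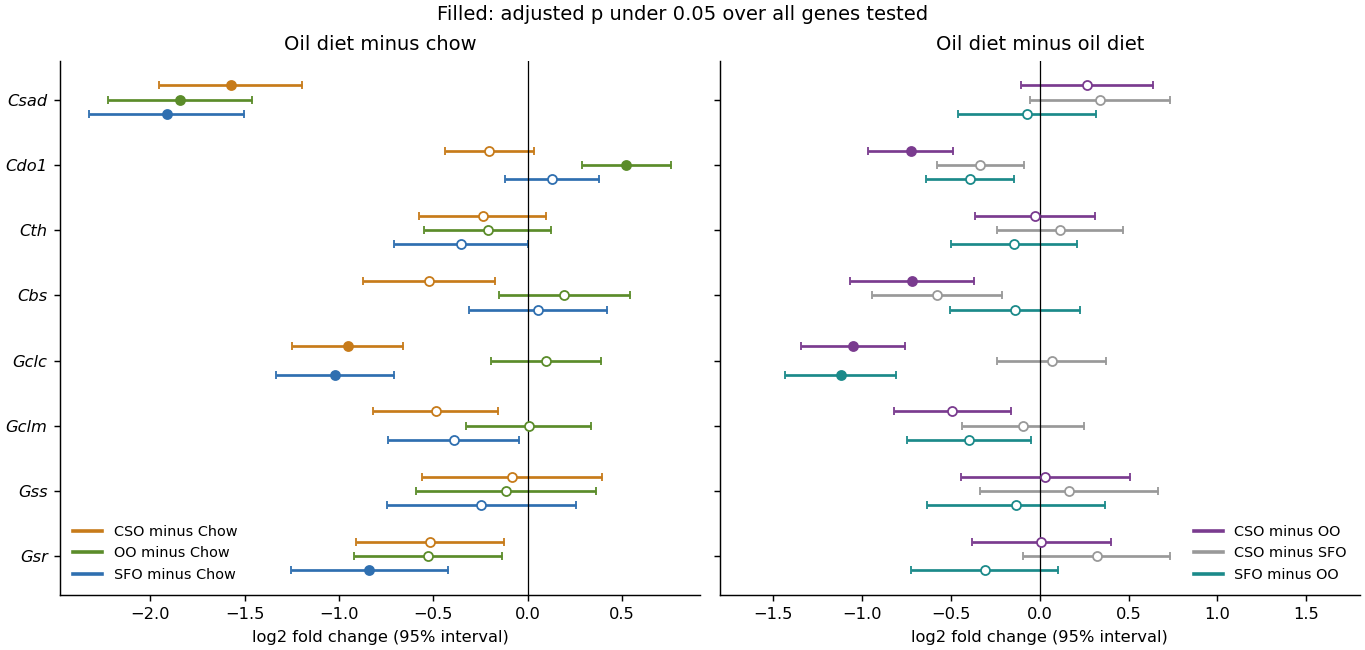
Log2 fold change with its 95% interval (horizontal axis) for each of the 8 genes (vertical axis), oil diets against chow on the left and oil diets against each other on the right; filled points have an edgeR adjusted p under 0.05 over all genes tested. On the left the filling is a description, as those differences chose the genes. On the right Csad is open in all 3 comparisons, and Gclc is filled in both comparisons of another oil with OO (-1.05 and -1.12).

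Libraries of 1 diet also differed from each other, and this spread, which may be technical in part, holds no difference between diets. For each library the deviation of log2 CPM from the mean of its diet was taken, and the 28 pairs of members were correlated over the 23 libraries, with 100000 permutations within diets (two-sided) and adjustment over the 28 pairs. Gss and Cth rose and fell together (Pearson r = 0.64, permutation p = 0.00335, adjusted p = 0.0469; Spearman rho = 0.69, permutation p = 0.00109, adjusted p = 0.0305). The sign was the same in each diet, with r from 0.34 in CSO to 0.80 in chow. Without OO replicate 4 and SFO replicate 5, whose Gss deviations lay farthest from the median, r was 0.50. Gclc and Cbs passed by Pearson's r only (r = 0.63, permutation p = 0.00328, adjusted p = 0.0469; rho = 0.59, permutation p = 0.00436, adjusted p = 0.0606). Without chow replicate 4 and OO replicate 3, whose Gclc deviations lay farthest from the median, this r was 0.57.

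Gclc and Cth just missed the threshold (r = 0.63, permutation p = 0.00538, adjusted p = 0.0502; rho = 0.62, permutation p = 0.00649, adjusted p = 0.0606). Gclm and Gsr ran in opposite directions without passing (r = -0.52, permutation p = 0.0191, adjusted p = 0.134; rho = -0.42, permutation p = 0.0634, adjusted p = 0.296). Csad and Cdo1, the neighbouring steps to taurine, had r = -0.19 (permutation p = 0.443, adjusted p = 0.819) and rho = -0.09 (permutation p = 0.719, adjusted p = 0.963). Over all 28 pairs the median r was 0.09 and 16 were positive. With library totals, or without the 4 libraries with muscle transcripts, no pair passed: the smallest adjusted permutation p was 0.0637 and 0.0897, while r for Gss and Cth was 0.65 and 0.64.

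**Figure D4:**
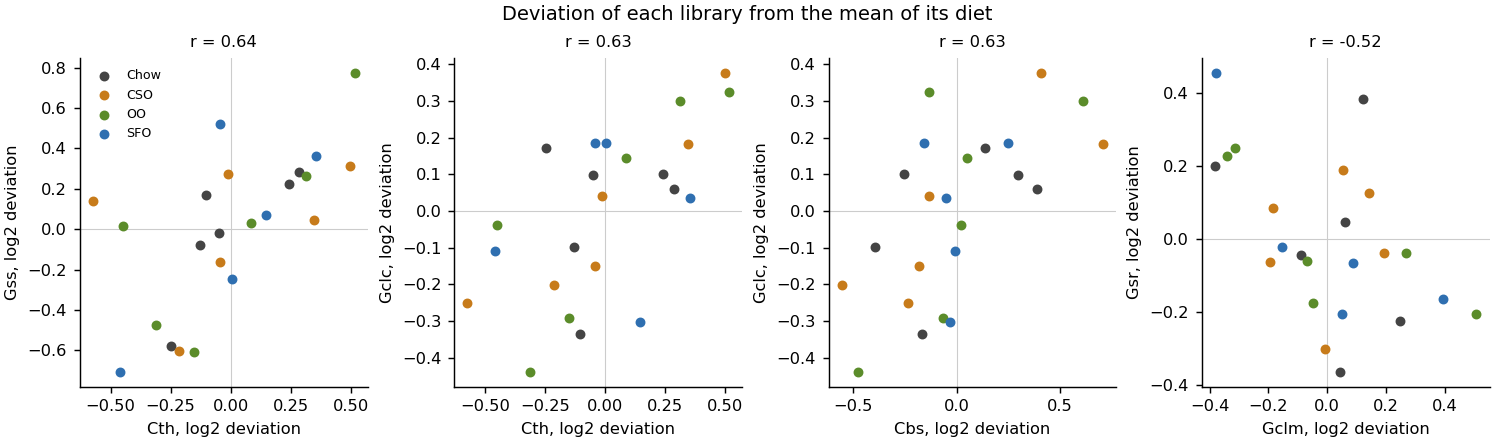
Deviation of log2 CPM from the mean of the library's own diet for 4 pairs of genes, 1 gene on each axis; each point is 1 of 23 libraries, coloured by diet, and Pearson's r stands above each panel. Points run upward for Gss with Cth (0.64), Gclc with Cth (0.63) and Gclc with Cbs (0.63), and downward for Gclm with Gsr (-0.52).

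Other genes with the most similar levels over the 23 libraries were ranked by Pearson's r of log2 CPM among 5678 well-expressed genes, as a description with no test, since all of them share libraries and diets. Csad was closest to Ephx1, the microsomal epoxide hydrolase (r = 0.89), Ces2a, a carboxylesterase (0.89), Gstm1, a glutathione S-transferase (0.88), Cyp3a11, a drug-metabolising cytochrome P450 (0.84), and Creg1 (0.74). After the diet means were taken out these were 0.48, 0.21, 0.36, -0.15 and 0.24, so that most of the likeness lay between diets. Its lowest values were with Rnase4, a ribonuclease (-0.84), Apoa4, an apolipoprotein (-0.80), and Cyp2d40 (-0.79). Within diets these were -0.45, 0.36 and -0.25, so the sign for Apoa4 turned. Several genes named here and below, Ces2a, Gstm1, Cyp3a11, Cyp2d40 and Cyp2c29 among them, belong to families of similar sequence, so their separate counts are uncertain.

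Gclc was closest to Cyp2c29, a cytochrome P450 (r = 0.78), Ugt2b36, a glucuronosyltransferase (0.76), Slc35a3, a nucleotide sugar carrier (0.76), Coq8a, of coenzyme Q synthesis (0.75), and Zfp385b (0.75). Within diets these were 0.33, 0.62, 0.13, 0.34 and 0.53. Coq8a had means of 298, 178, 457 and 239 CPM in chow, CSO, OO and SFO. The lowest values were with Mup20, a major urinary protein (-0.76), Gnl1 (-0.73) and Gfra1, a receptor (-0.72). Within diets these were -0.33, -0.03 and -0.19.

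Cdo1 was closest to Hsd3b7, a bile acid synthesis enzyme (r = 0.87), Col18a1, a collagen (0.85), Abcb11, the bile salt export pump (0.80), Hsd3b5, a steroid dehydrogenase (0.80), and Serpinc1, antithrombin (0.79). Here 4 of the 5 kept r above 0.5 within diets, with 0.53, 0.64, 0.39, 0.65 and 0.65 in that order. Hsd3b7 averaged 490 CPM in chow, 414 in CSO, 868 in OO and 534 in SFO. The lowest values were with Sfxn1, a mitochondrial serine carrier (-0.77), Pdxk, which makes the active form of vitamin B6 (-0.74), and Btbd2 (-0.71). Within diets these were -0.52, -0.56 and -0.72.

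**Figure D5:**
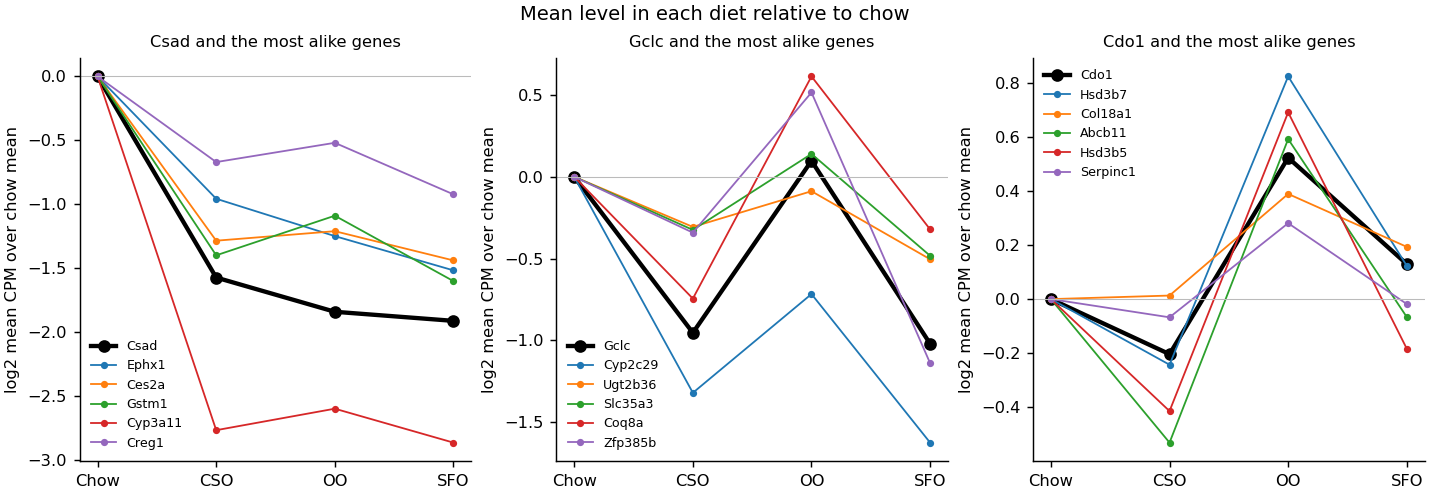
Log2 of the mean CPM in each diet over the chow mean (vertical axis) by diet (horizontal axis, in no order; lines only join the values of 1 gene) for Csad, Gclc and Cdo1 in black and the 5 genes most like each. The Csad panel falls from chow to all 3 oils, the Gclc panel dips in CSO and SFO, and the Cdo1 panel peaks in OO.

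Around these 8 genes, 9 lists of neighbouring pathways held 104 distinct genes, 95 of which were tested. Called higher and lower were 1 and 2 in CSO against chow, 6 and 3 in OO against chow, 1 and 2 in SFO against chow, 0 and 3 in CSO against OO, 1 and 1 in CSO against SFO, and 0 and 5 in SFO against OO. The shares of all genes called in these comparisons, in the same order, were 0.409%, 2.64%, 0.835%, 1.09%, 0.493% and 1.06%. The lists were chosen with earlier results of these data known. The p-values below are therefore a description and give no independent support. The 6 tested carriers of cystine, cysteine, taurine and related amino acids had 0 edgeR calls in each comparison, with 1 to 3 of them under an unadjusted p of 0.05.

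In the methionine cycle, which supplies homocysteine, 1 of 10 genes was called. Mat1a, which makes S-adenosylmethionine, was higher in all 3 oils than in chow, by 0.55 ± 0.11, 0.60 ± 0.11 and 0.46 ± 0.11 on the log2 scale (edgeR adjusted p = 0.00465, 0.000828 and 0.0288). Among 7 other enzymes of cysteine and taurine handling, Vnn1, the pantetheinase that releases cysteamine, was 125 ± 33.4 CPM in CSO and 42.9 ± 13.7 in SFO, a log2 difference of 1.55 ± 0.30 (edgeR adjusted p = 0.00330). Bco2, the other call on that list, is a carotenoid-cleaving enzyme, which the name of the list does not describe well. It was lower in CSO than in OO, where it averaged 59.2 ± 48.7 CPM.

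Of 9 genes of cysteine desulfuration and sulfide oxidation, Tst, the sulfurtransferase rhodanese, was higher in OO than in chow by 0.57 ± 0.16 (edgeR adjusted p = 0.0457). Txndc12, a thioredoxin-like protein of the endoplasmic reticulum, was higher in OO than in chow by 1.30 ± 0.30 (edgeR adjusted p = 0.0112). The name of the list does not describe Txndc12 well. Of 11 genes of glutathione turnover and export, Anpep, an aminopeptidase of the final step of breakdown, was 312 ± 159 CPM in OO and 174 ± 14.6 in chow, a log2 difference of 0.84 ± 0.19 (edgeR adjusted p = 0.00989). It was lower in SFO than in OO by -0.76 ± 0.20 (edgeR adjusted p = 0.0455). Abcc4, an export pump, was at 7.29 ± 5.91 CPM in chow and 0.214 ± 0.247 in OO.

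Among 16 genes that use reduced glutathione or supply NADPH, Hagh, the glyoxalase hydrolase that frees glutathione, was higher in OO than in chow by 0.55 ± 0.15 (edgeR adjusted p = 0.0413). Hagh was lower in SFO than in OO by -0.75 ± 0.16 (edgeR adjusted p = 0.0149). Idh1, a source of NADPH, was lower in SFO than in OO by -0.50 ± 0.13 (edgeR adjusted p = 0.0327).

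Of 16 other targets and regulators of NRF2, the oxidative stress factor that is known to drive Gclc, Gclm and Gsr, 2 were called in each comparison with chow, all of them lower. Over all genes 0.200%, 0.919% and 0.342% were called lower in CSO, OO and SFO. Ephx1 was lower than chow by -0.96 ± 0.17, -1.25 ± 0.17 and -1.52 ± 0.18 in CSO, OO and SFO (edgeR adjusted p = 0.000887, 5.05e-06 and 1.96e-07). Ugdh, which makes UDP-glucuronate, was lower in CSO by -0.98 ± 0.19 and in SFO by -0.91 ± 0.20 (edgeR adjusted p = 0.00247 and 0.00668). Ftl1, the ferritin light chain, was lower in OO by -0.62 ± 0.17 (edgeR adjusted p = 0.0397). No other gene of the list was called against chow, Nqo1, Hmox1, Srxn1 and Txnrd1 included. The median of these 16 genes was -0.28, -0.34 and -0.25 in CSO, OO and SFO against chow, where it was -0.02, 0.07 and 0.01 over all genes. The part of NRF2 in any of these differences was not tested.

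Of 10 amino acid stress genes driven by ATF4, only Atf5, itself a transcription factor, was called in any comparison. It was 388 ± 96.7 CPM in chow, 248 ± 43.1 in CSO, 523 ± 113 in OO and 530 ± 153 in SFO. From chow it differed by -0.65 ± 0.17, 0.43 ± 0.17 and 0.45 ± 0.18 (log2) in CSO, OO and SFO, with no call. The log2 differences of CSO were -1.08 ± 0.17 from OO and -1.10 ± 0.18 from SFO (edgeR adjusted p = 0.000121 and 0.000167). Of 11 genes of bile acid synthesis and feedback, the products of which are joined to taurine, Abcb11 was higher in OO than in chow by 0.59 ± 0.14 (edgeR adjusted p = 0.0150). Abcb11 was lower in CSO than in OO by -1.12 ± 0.14 and in SFO than in OO by -0.66 ± 0.15 (edgeR adjusted p = 1.97e-06 and 0.0207). Slc10a1, the bile acid uptake carrier, was lower in SFO than in OO by -0.63 ± 0.15 (edgeR adjusted p = 0.0265).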

How the data were processed

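Liver RNA of 23 libraries was analysed from raw counts per gene deposited by the authors, without normalization. Per the submitters' processing notes, Trimmomatic, STAR 2.7.1a, mm39, HTSeq 0.9.1, DESeq2 and DESeq were used; the use of strand in counting was not given in the sources used here, so tags of genes overlapping on opposite strands cannot be told apart. The authors also deposited 3 tables of chow against each oil, with a signal (the mean normalized count), a log2 fold change, a log2 standard error, the Wald score and p-values; their sign was turned to oil over chow.

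Counts were fitted in R 4.3.3 with edgeR 4.0.16 (filterByExpr, TMM, robust quasi-likelihood F test, 4 diets in 1 fit, 6 comparisons). Adjusted p is Benjamini-Hochberg over 11971 genes, with a threshold of 0.05; these genes hold 99.9% of counts. CPM used TMM-scaled totals, and log2 CPM a prior count of 2. The clock score is the mean log2 CPM of Per2, Per3, Tef, Dbp and Ciart minus that of Clock, Arntl, Npas2 and Nfil3. The labels do not say more than that samples are separate, so p-values cover only their spread, which may be technical. DESeq2 1.42.0 and limma 3.58.1 were alternatives. All 8 members were named, along with up to 4 called genes per list and the 5 most and 3 least alike genes (mean log2 CPM of at least 4; predicted genes skipped). The members, lists and alternatives were chosen with earlier results of these data known. Statistics were tested on simulated data.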

Additional observations from a re-analysis of the deposited data

Results flagged for a closer look

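In each group of 5 or 6 libraries, the gap between the most extreme library and its neighbour was compared with the range of the group, for the 8 genes in 4 diets (32 groups). Chance marks about 1 in 20 groups, and 2 were marked. Csad in OO replicate 2 was at 275 CPM, while the next OO library was at 166 and the lowest at 115. This library is still below every chow library, and without it the log2 difference of Csad between OO and chow was -2.06. Gsr in SFO replicate 5 was at 103 CPM, with the other 4 SFO libraries between 64.8 and 73.7. Without it the log2 difference of Gsr between SFO and chow was -0.97.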

How the results depend on the processing

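Each of the 23 libraries was left out in turn, and 11 other settings were tried. The count of members called ran over the leave-one-out fits from 2 to 3 in CSO against chow, 2 to 2 in OO against chow, 2 to 3 in SFO against chow, 2 to 3 in CSO against OO, 0 to 1 in CSO against SFO and 1 to 1 in SFO against OO. The only count moved by over 1.5 times there was that of CSO against SFO, 1 (Cbs) without CSO replicate 2. limma voom called 4 members in CSO against chow (Csad, Gclc, Gclm and Cbs) and 1 in CSO against SFO (Cbs). An added limit of an absolute log2 fold change of 1 left 1 in CSO against chow, 1 in OO against chow and 1 in CSO against OO. Without the 4 libraries with muscle transcripts, which leaves 3 chow libraries, 1 was called in OO against chow (Csad). The count of covarying pairs was 0 without those libraries and 0 with library totals. The cause of these changes was not tested, except that fewer libraries were compared where some were left out.

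The sign turned for some differences near 0 that passed no test, and for no called one. Against chow, Gss in CSO was 0.060 without the muscle libraries and -0.18 to 0.019 over the leave-one-out fits. Gclc in OO was -0.083 with library totals, Gclm in OO negative in 4 of the 11 other settings (down to -0.20, with library totals) and -0.11 to 0.070 over the leave-one-out fits, and Cbs in SFO -0.0079 with the replicate block and -0.016 to 0.14. In CSO against OO, Gss was -0.18 with the clock score and -0.073 to 0.22 over the leave-one-out fits, Gsr -0.038 with voom and -0.031 to 0.064, and Cth 0.12 with library totals and -0.14 to 0.087. In CSO against SFO the leave-one-out fits gave -0.017 to 0.12 for Gclc and -0.18 to 0.016 for Gclm. In SFO against OO, Csad was 0.062 with library totals, 0.054 with voom and -0.16 to 0.16 over the leave-one-out fits, Gss -0.27 to 0.072 and Cbs -0.22 to 0.0090.

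Replicate numbers did not pair the samples: of 33 pairs of libraries with the same number in different diets, 0 had deviations correlated above 0.1, and 1 of 23 libraries correlated best with its own number. With the replicate number as a block, 2, 2, 2, 3, 0 and 1 members were called in CSO, OO and SFO against chow, CSO against OO, CSO against SFO and SFO against OO, and the member lost was Gsr in SFO against chow. Counting error of a member in a library was at most 5.35%.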
